A study of Saccharomyces cerevisiae with 8 samples.

Results

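XH7 is a diploid strain of the yeast Saccharomyces cerevisiae that was engineered to ferment xylose and then evolved on this sugar. Its transcriptome was compared between cells using xylose after glucose (GX stage) and cells using xylose alone (X stage). The comparison takes 4 of the 8 libraries of the study, chosen by their strain and stage labels only. The GX cells were collected at 14 h, once glucose was used up, in a culture begun with both sugars at 20 g/L each. The X cells were collected at 12 h in a culture begun with xylose at 20 g/L and no other sugar. Each stage had 2 libraries from duplicate fermentations, called GX1, GX2, X1 and X2 below. All 4 libraries share the alterations of XH7, which are xylose isomerase genes at PHO13 and at delta sequences, pentose phosphate pathway genes at GRE3, a xylulokinase gene and the adaptive evolution. XH7 carries COX4, a subunit gene of cytochrome c oxidase. The other 4 libraries are of BSGX001 at the same stages, a haploid, evolved laboratory strain in which COX4 is deleted. A xylose isomerase gene, a xylulokinase gene and pentose phosphate pathway genes at GRE3 are also listed for BSGX001 in the study. The study describes GRE3 and PHO13 as deleted in both strains. Sugar history, hour of sampling and growth phase differ together between the stages, so their parts cannot be told apart. The sources differ on XH7 itself, because the labels give the laboratory strain CEN.PK113-5D as parent and the study a diploid isolate from tropical fruit. They also differ on the medium, which the labels give as yeast nitrogen base with ammonium sulfate and the study as synthetic complete medium.

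Yeast matches amino acid synthesis to supply. When amino acids run short, translation of the mRNA of GCN4 increases, and the Gcn4 protein activates genes of most amino acid pathways through sites that hold TGACTC. Amino acids outside the cell are sensed by the Ssy1-Ptr3-Ssy5 complex, which induces permease genes such as AGP1, BAP3 and GNP1. Proline is broken down in mitochondria by the enzymes of PUT1 and PUT2, whose activator is Put3. Many nuclear mRNAs for mitochondrial proteins carry an element with TGTANATA after the stop codon, which the RNA-binding protein Puf3 recognises. Glucose represses gluconeogenesis, respiration, the use of other sugars and many transporter genes.

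The promoters of 4 genes among the largest changes are printed to show where the Gcn4 or Put3 motif lies. They are the 300 bases before the start codon in the S288C reference, build R64, from which the sequence of XH7 may differ. Capitals mark TGACTC or its reverse complement, and in PUT1 the Put3 motif CGGNNNNNNNNNNCCG. ARG1 (argininosuccinate synthase) is at chrXV:218911-219210, LEU9 (a synthase of leucine formation) at chrXV:522727-523026, BAT1 (mitochondrial branched-chain aminotransferase) at chrVIII:517232-517531 and PUT1 (proline dehydrogenase) at chrXII:424886-425185, all on the plus strand.
ARG1: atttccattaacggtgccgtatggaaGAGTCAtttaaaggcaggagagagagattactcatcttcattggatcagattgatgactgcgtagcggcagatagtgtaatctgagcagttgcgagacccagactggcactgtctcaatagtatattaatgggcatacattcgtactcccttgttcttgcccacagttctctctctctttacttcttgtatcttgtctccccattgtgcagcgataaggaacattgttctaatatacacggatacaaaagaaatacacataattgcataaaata
LEU9: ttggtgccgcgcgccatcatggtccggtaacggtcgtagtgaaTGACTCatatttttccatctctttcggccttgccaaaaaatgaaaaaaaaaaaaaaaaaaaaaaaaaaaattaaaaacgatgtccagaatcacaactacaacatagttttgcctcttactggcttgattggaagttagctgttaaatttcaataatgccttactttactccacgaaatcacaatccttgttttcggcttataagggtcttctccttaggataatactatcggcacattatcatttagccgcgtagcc
BAT1: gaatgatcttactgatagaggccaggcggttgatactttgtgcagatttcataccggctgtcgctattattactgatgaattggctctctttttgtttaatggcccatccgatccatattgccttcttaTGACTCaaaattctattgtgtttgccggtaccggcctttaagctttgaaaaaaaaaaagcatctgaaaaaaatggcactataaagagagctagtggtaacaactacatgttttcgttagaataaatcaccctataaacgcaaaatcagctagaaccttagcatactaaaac
PUT1: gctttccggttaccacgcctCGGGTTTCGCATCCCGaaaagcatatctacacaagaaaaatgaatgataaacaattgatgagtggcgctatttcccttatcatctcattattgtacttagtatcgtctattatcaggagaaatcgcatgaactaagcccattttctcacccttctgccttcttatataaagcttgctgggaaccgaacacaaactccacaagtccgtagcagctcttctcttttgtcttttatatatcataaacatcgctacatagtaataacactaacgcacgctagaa
The motif starts 274 bases before the start codon in ARG1, 257 in LEU9, 171 in BAT1 and 280 in PUT1. The Put3 motif lay in 1.39% of the 5464 promoters of tested genes, searched on both strands.

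The Puf3 element is shown with 11 bases on each side for 5 genes of the mitochondrial groups, in capitals and on the coding strand. The sites lie at chrXI:437038-437067 (minus strand) for MRP17, chrXIII:636217-636246 (minus) for MRPS17, chrXIII:572761-572790 (plus) for MRPS8, chrXII:131155-131184 (minus) for COX17 and chrV:117521-117550 (plus) for TIM9.
MRP17: ctacaaacacaTGTAAATAcatacatatct
MRPS17: gcactacactcTGTAAATAtatacaactac
MRPS8: tatacggaccaTGTAAATAataatattata
COX17: caaccatttctTGTATATAtaagaataggt
TIM9: catttttagcaTGTAAATAtaaagagaaac
The element was searched on the coding strand in the 200 bases after each stop codon. A match of letters here is a description and not a measured binding site.

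The XH7 libraries held 6268553 and 5431137 expected counts in the GX stage, against 5279864 and 6791859 in the X stage, with 6020 to 6067 genes detected in each. Levels are given as CPM, which are counts scaled to the library total after TMM, a correction for differences in composition. COX4 was present, with 2680 and 2217 counts in GX cells and 1186 and 1679 in X cells, and had 0 counts in the 4 BSGX001 libraries. The a-factor genes MFA1 and MFA2 had 0 counts in the 4 XH7 libraries, but were also low in BSGX001, at 8 to 30 and 10 to 39 counts. The summed level of 18 haploid-specific genes was 222 to 235 CPM in GX cells and 209 to 212 CPM in X cells, against 1530 to 1722 CPM in BSGX001. The pheromone receptor gene STE2, a marker of one haploid mating type, still had 83 to 111 counts in the XH7 libraries, against 3227 to 4459 in BSGX001. SAG1, of the haploid-specific list, was alike in both strains, at 37.1 to 46.6 CPM in XH7 and 37.7 to 51.5 CPM in BSGX001.

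Of 5921 genes tested, 1578 rose (26.7%) and 1304 fell (22.0%) in the GX stage of XH7 by edgeR's quasi-likelihood test at a Benjamini-Hochberg adjusted p of 0.05. With a change of 2-fold or more as a further limit, 389 genes were called higher (6.57%) and 348 lower (5.88%). All 737 called genes had GX and X levels that did not overlap, as did 4415 genes (74.6%) of all tested. The median log2 change over all genes was 0.04. With 2 libraries a stage, p-values and standard errors measure the spread between duplicate fermentations. This spread was estimated over all 4 groups, so it also rests on the BSGX001 duplicates. With XH7 fitted alone, 349 genes were called higher and 373 lower. Fold changes below are log2 of GX over X with their standard errors, and adjusted p-values are from the same test over all 5921 genes.

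The split of calls depended on the scaling. With library totals in place of TMM, 613 genes were called higher and 234 lower, so the share higher was 72.4% in place of 52.8%, and the median over all genes moved by 0.20. With upper-quartile scaling 305 were higher and 414 lower (42.4% higher), and the median moved by −0.08. RLE scaling gave 347 higher and 379 lower. The TMM factors were 1.003 and 0.999 in GX libraries, against 0.888 and 0.857 in X libraries. Of the 737 genes called with TMM, 695 were also called with RLE, 653 with upper-quartile scaling and 623 with library totals, and 0 changed sign under any of them. A log2 change near 0 can therefore change sign with the scaling, whereas the genes named below that passed the test kept their direction under each scaling run.

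**Figure D1:**
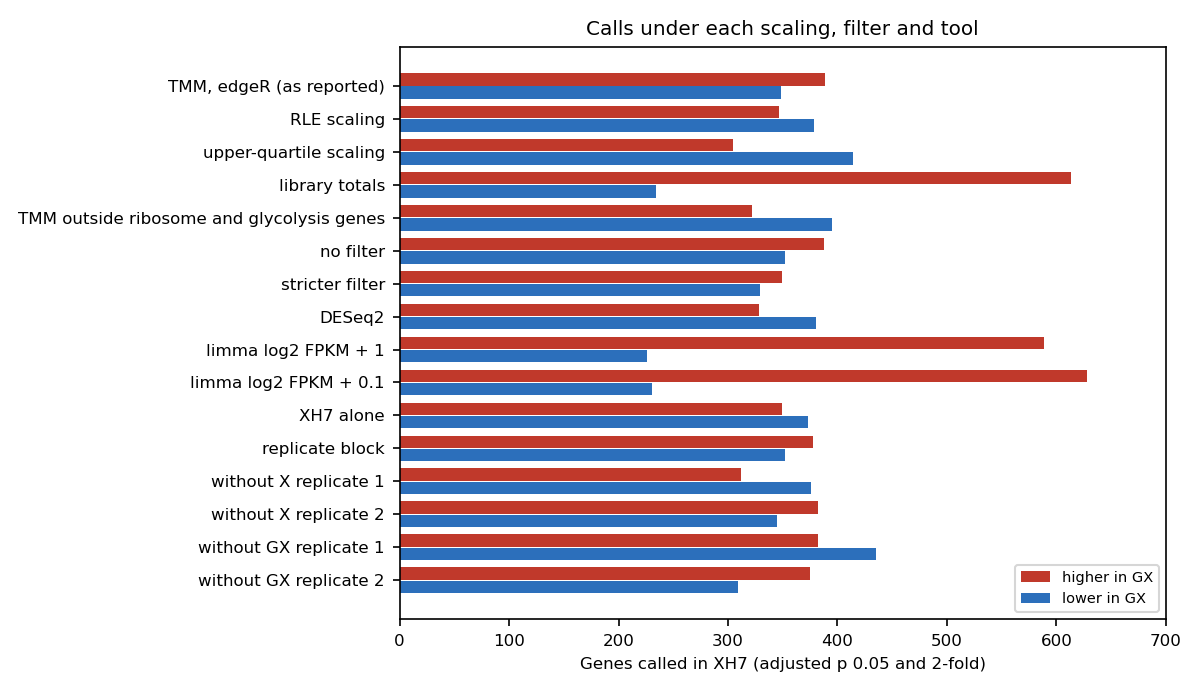
Number of genes called in XH7 (horizontal axis) under each scaling, filter and tool (rows), as red bars for genes higher in the GX stage and blue bars for genes lower. The count higher is 389 with TMM, 613 with library totals and 305 with upper-quartile scaling, and the counts lower are 348, 234 and 414.

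Transport, polyol use, proline breakdown and gluconeogenesis were among the functions of the largest rises. VBA5, a transporter gene of the basic amino acid family, had 248 and 231 CPM in GX cells, against 0.853 and 2.40 CPM in X cells, where the library X1 held 4 counts and X2 held 14. Its log2 change was 7.12 ± 0.21 (adjusted p = 3.08e-07), and 8.08 without X2. PUT1 had 280.0 and 446 CPM in GX cells, against 36.0 and 30.6 CPM in X cells, a change of 3.45 ± 0.24 (adjusted p = 1.24e-05). The GX and X levels of both genes were far apart and did not overlap.

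A group of sugar alcohol genes rose together. DSF1, a mannitol dehydrogenase gene, reached 15972 and 13554 CPM in GX cells, against 1059 and 741 CPM in X cells, a change of 4.04 ± 0.20. SOR1 and SOR2, sorbitol dehydrogenase genes with identical values in every library, had 574 and 459 CPM in GX cells, against 37.5 and 33.0 CPM in X cells (3.88 ± 0.16). HXT13, which encodes a transporter of hexoses and polyols, had 1838 and 1753 CPM in GX cells and 121 and 69.7 CPM in X cells (4.24 ± 0.25), and HXT15 and HXT16 changed by 2.92 ± 0.16 each. The adjusted p of these genes was at most 8.10e-06. DSF1, SOR1, SOR2, HXT13, HXT15 and HXT16 have near-identical copies in the genome, so how reads were shared among copies is uncertain. Of 17 tested hexose transporters 11 rose and 1 fell (median 0.58), and of 14 polyol dehydrogenase and aldo-keto reductase genes 6 rose and 3 fell (median 0.20). HXT14 had 3.34 and 2.21 CPM in GX cells, but X1 held 0 counts and X2 held 1, too few for a fold.

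The 2 enzymes specific to gluconeogenesis were both higher. FBP1, fructose-1,6-bisphosphatase, had 168 and 232 CPM in GX cells, against 21.3 and 19.6 CPM in X cells, a change of 3.29 ± 0.19 (adjusted p = 8.10e-06). PCK1, phosphoenolpyruvate carboxykinase, had 1916 and 3067 CPM in GX cells, against 421 and 346 CPM in X cells (2.70 ± 0.29, adjusted p = 9.78e-05). In BSGX001 FBP1 stood at −0.69 and PCK1 at −0.68, the second of which did not pass there with TMM but did with upper-quartile scaling. IDP2, cytosolic isocitrate dehydrogenase, rose by 1.96 ± 0.19. The acetaldehyde dehydrogenase genes of mitochondria fell, with ALD5 at −3.78 ± 0.21 and ALD4 at −2.93 ± 0.24. Over the 24 tested genes of the TCA and glyoxylate cycles, 5 rose and 5 fell (median −0.01, a sign that changes with the scaling).

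Among the other large rises were BAP3, an amino acid permease gene (2.98 ± 0.50), ULI1, a gene of the unfolded protein response (3.86 ± 0.19), YET2 (2.86 ± 0.17) and CIS1 (2.71 ± 0.26). The sodium-phosphate symporter gene PHO89 had 176 and 535 CPM in GX cells, against 55.0 and 48.6 CPM in X cells, a change of 2.78 ± 0.43 (adjusted p = 7.38e-04). GX2 stood far above GX1, and the change was 1.76 without GX2 and 3.37 without GX1.

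**Figure D2:**
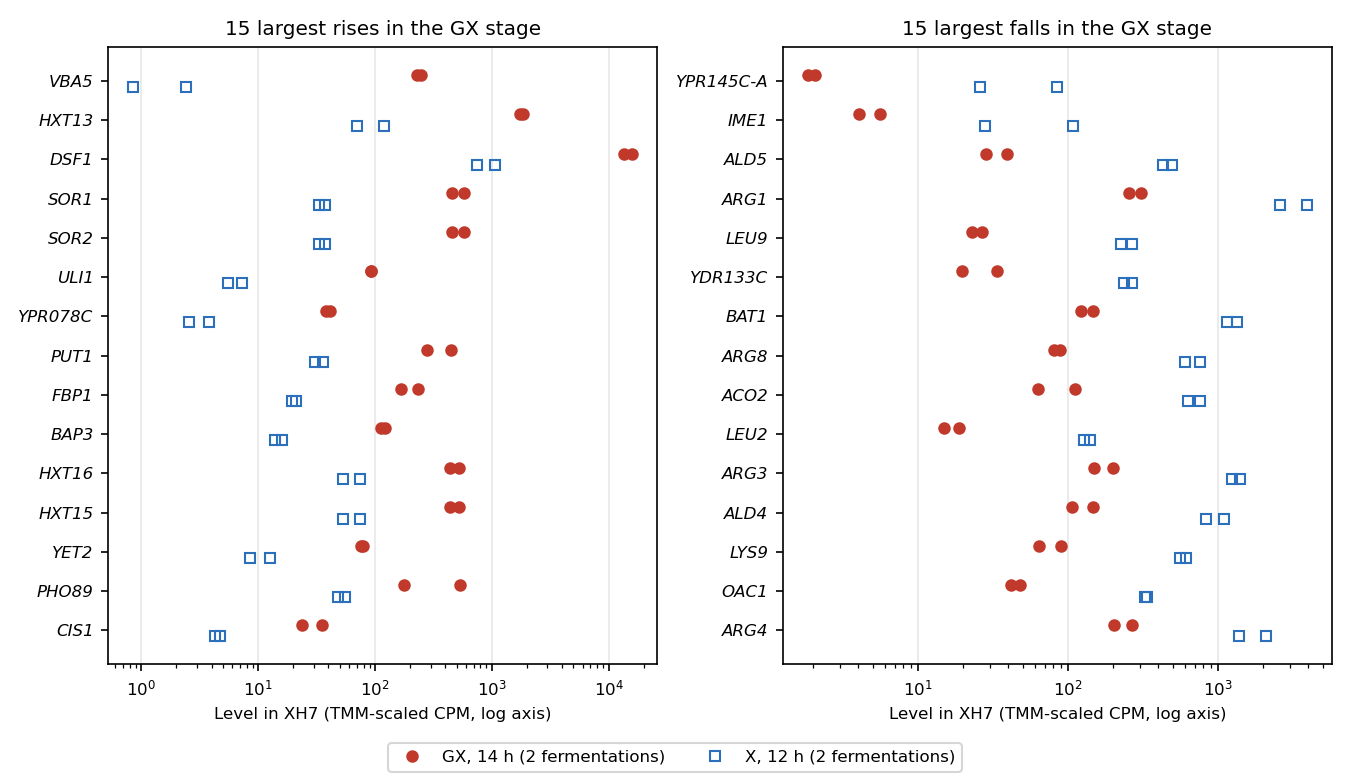
Level of the 15 largest rises (left) and 15 largest falls (right) in XH7, in TMM-scaled CPM on a log axis, with filled red circles for the 2 GX fermentations and open blue squares for the 2 X fermentations of each gene. The circles and squares of each gene do not overlap, and VBA5 stands at 231 to 248 CPM in the GX stage, against 0.853 to 2.40 CPM in the X stage.

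Amino acid synthesis was lower in the GX stage across most pathways. ARG1 had 308 and 254 CPM in GX cells, against 2574 and 3924 CPM in X cells, a change of −3.53 ± 0.22 (adjusted p = 8.78e-06). BAT1 had 148 and 122 CPM in GX cells, against 1142 and 1338 CPM in X cells (−3.20 ± 0.15, adjusted p = 2.34e-06). Both GX fermentations lay below both X fermentations by a wide margin in these genes. Of 19 genes of arginine and lysine synthesis 18 fell, all of them by 2-fold or more, with a median of −2.17. They held 0.409% and 0.369% of counts in GX libraries, against 1.47% and 1.78% in X libraries. ARG8 (acetylornithine aminotransferase) changed by −3.0 ± 0.14, ARG3 (ornithine carbamoyltransferase) by −2.93 ± 0.18, ARG4 (argininosuccinate lyase) by −2.89 ± 0.21 and LYS9 (saccharopine dehydrogenase) by −2.92 ± 0.21.

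The other amino acid pathways moved the same way. Of 12 genes of branched-chain amino acid synthesis 11 fell (median −2.11), among them LEU9 (−3.32 ± 0.25), LEU2 (−2.99 ± 0.13) and OAC1, a mitochondrial carrier of oxaloacetate and isopropylmalate (−2.89 ± 0.11). The exception was BAT2, the cytosolic branched-chain aminotransferase, which rose by 0.86 ± 0.16. Of 20 genes of aromatic amino acid and histidine synthesis 19 fell (median −1.83), such as HIS1 (−2.57 ± 0.18) and TRP4 (−2.49 ± 0.17), and TRP1 rose by 0.83 ± 0.10. Of 26 genes of sulfate assimilation and methionine synthesis 22 fell and 1 rose (median −1.05), with HOM3, aspartate kinase, at −2.50 ± 0.21 and MET3, ATP sulfurylase, at −2.37 ± 0.26. Of 24 genes of purine, one-carbon and serine-glycine synthesis 18 fell and 0 rose (median −0.94), with SER3, which starts serine synthesis, at −2.55 ± 0.17. Of 21 tRNA synthetase genes 20 fell and 0 rose (median −0.74), led by YDR341C, the arginyl-tRNA synthetase gene, at −1.37 ± 0.15. The counts of rises and falls in each of these lists stand against 26.7% risen and 22.0% fallen over all genes.

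The mRNA of GCN4 itself did not pass the test, with 4147 and 3966 CPM in GX cells, against 4184 and 4486 CPM in X cells and a log2 ratio of −0.10 ± 0.12 (adjusted p = 0.544). The TGACTC motif lay in 8.02% of all promoters, in 23.8% of those of genes called lower and in 6.42% of those of genes called higher. Its share was 68.4% for arginine and lysine synthesis, 58.3% for branched-chain amino acids, 55.0% for aromatic amino acids and histidine and 75.0% for purine, one-carbon and serine-glycine synthesis. It was 38.1% for tRNA synthetases, 26.9% for sulfate assimilation and methionine and 21.7% for amino acid permeases, of which more rose than fell. Of 5026 genes with no copy 4.83% were called lower, of 399 with 1 copy 16.8%, and of 35 with 2 copies 22.9%. These shares are descriptions, and binding by Gcn4 was not tested.

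Of 23 tested amino acid permease genes 12 rose and 2 fell, with a median of 0.43. The Stp1 motif CGGCTC lay in 4.35% of their promoters, against 3.4% of all. AGP1, a broad permease, had 170.3 and 164 CPM in GX cells, against 30.1 and 28.5 CPM in X cells (2.51 ± 0.16, adjusted p = 8.97e-06), and GNP1, a glutamine permease, had 269 and 214 CPM, against 46.9 and 43.8 CPM (2.42 ± 0.17). The falls were CAN1, the arginine permease (−1.36 ± 0.14), and MUP3, a methionine permease (−0.47 ± 0.10). The sensor gene SSY1 changed by 0.43 ± 0.10 and did not pass without X2. Permeases of other nitrogen compounds went both ways, since the uridine permease gene FUI1 rose by 2.52 ± 0.17 while the ammonium permease gene MEP2 fell by 2.04 ± 0.30 and the ammonium exporter gene ATO3 fell by 1.49 ± 0.16. Of 22 genes of proline, allantoin and GABA use 7 rose and 6 fell (median 0.14). PUT2, which completes proline breakdown, changed by 0.62 ± 0.10, and the mRNA of the activator PUT3 by −0.79 ± 0.10. Among glutamate dehydrogenase genes, GDH3 rose by 1.33 ± 0.13 and GDH2 by 0.87 ± 0.12.

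The translation machinery of mitochondria was higher as a block. Of 67 tested genes of mitochondrial ribosomal proteins 66 rose and 0 fell, 28 of them by 2-fold or more, with a median of 0.90 and a range of 0.22 to 1.65. The list held 1.16% and 1.06% of counts in GX libraries, against 0.500% and 0.523% in X libraries. MRP17 had 175 and 145 CPM in GX cells, against 45.9 and 55.7 CPM in X cells (1.65 ± 0.14, adjusted p = 2.99e-05), and MRPS17 had 321 and 306 CPM, against 99.4 and 111 CPM (1.57 ± 0.11). MRPS8 changed by 1.50 ± 0.12. The median of the list was 0.82 to 1.10 over the scalings. RSM22, the member that did not pass, stood at 0.22.

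Import and assembly factors moved likewise. Of 55 tested genes 38 rose and 3 fell (median 0.53). COX17, a copper chaperone for cytochrome c oxidase, had 128 and 97.2 CPM in GX cells, against 23.7 and 36.2 CPM in X cells (1.90 ± 0.19). TIM9, a chaperone of the intermembrane space, changed by 1.39 ± 0.12 and PET191, an assembly factor of cytochrome c oxidase, by 1.35 ± 0.19. The falls were AAC3, the ADP/ATP carrier linked to low oxygen (−2.61 ± 0.25), TIM21 (−0.50 ± 0.10) and TOM71 (−0.48 ± 0.10), the last of which did not pass in limma on FPKM. Of 38 genes of the respiratory chain and ATP synthase 29 rose (median 0.61) and 1 fell, the external NADH dehydrogenase gene NDE2 at −1.01 ± 0.21, or −0.59 without X2. COX4 rose by 0.62 ± 0.11 (adjusted p = 0.00279).

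The Puf3 element lay after 98.5% of the mitochondrial ribosomal protein genes, or 66 of 67, with RSM22 as the one without it. It lay after 72.7% of the import and assembly genes and after 15% of all 5464 genes read. Of 753 genes with the element outside the mitochondrial ribosome 319 rose (42.4%) and 117 fell (15.5%), with a median of 0.24. Of 4645 genes without it 1123 rose (24.2%) and 1125 fell (24.2%), with a median of 0.00. In BSGX001 the corresponding medians were −0.05 and −0.01. PUF3 mRNA had 119 and 116 CPM in GX cells, against 59.3 and 69.2 CPM in X cells (0.87 ± 0.11, adjusted p = 2.49e-04).

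**Figure D3:**
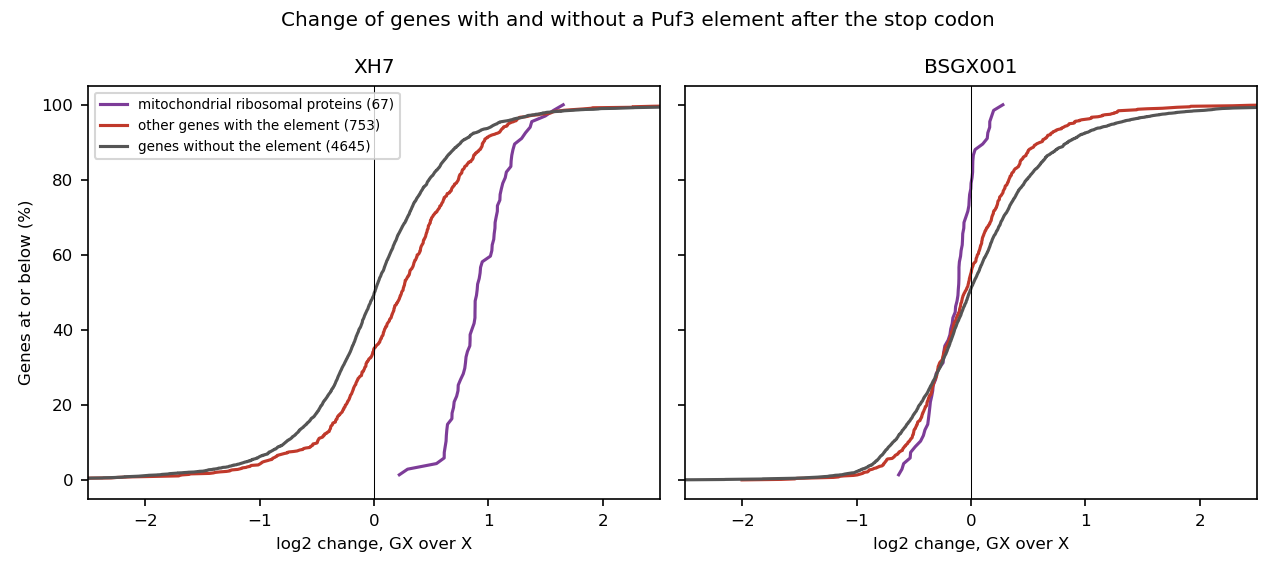
Cumulative share of genes (vertical axis, percent) by log2 change, GX over X (horizontal axis), in XH7 (left) and BSGX001 (right), for 67 mitochondrial ribosomal protein genes (purple), 753 other genes with the Puf3 element (red) and 4645 without it (grey). In XH7 the purple curve lies right of 0 throughout and the medians are 0.90, 0.24 and 0.00, and in BSGX001 they are −0.11, −0.05 and −0.01.

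More vitamin and metal genes rose than fell, beside 26.7% risen and 22.0% fallen over all genes. Of 26 genes for thiamine, biotin and pyridoxine 14 rose and 2 fell (median 0.78). The pyridoxine synthesis genes SNZ2 and SNZ3, near-identical copies with equal values, changed by 2.26 ± 0.25, and THI4, which makes the thiazole part of thiamine, by 1.79 ± 0.35, or 1.17 without GX1. NAD synthesis went the other way at its largest changes, with BNA1 at −2.71 ± 0.24, although over 16 genes 3 rose and 6 fell (median −0.12). Of 25 genes of iron uptake 10 rose and 1 fell (median 0.49), with the ferric reductase gene FRE4 at 2.26 ± 0.29, or 1.63 without GX2. The copper transporter gene CTR3 changed by 1.77 ± 0.42, a call lost without X1, and the zinc transporter gene ZRT1 by 1.71 ± 0.30. Of 20 genes for copper, zinc and metallothionein 6 rose (30.0%), 1 fell and 13 did not pass (median 0.41). Of 21 phosphate genes 7 rose and 7 fell, the permease gene GIT1 for glycerophosphoinositol rising by 1.96 ± 0.38. The sulfite pump gene SSU1 fell by 2.06 ± 0.21.

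No gene of the mitosis list rose, and more genes of G1/S fell than rose. Of 38 genes of mitosis and cytokinesis 23 fell and 0 rose (median −0.69). CLB2, the main mitotic cyclin gene, had 14.0 and 7.74 CPM in GX cells, against 53.5 and 47.1 CPM in X cells (−2.19 ± 0.24, adjusted p = 1.24e-04). SWI5, an activator of late mitotic genes, changed by −2.25 ± 0.23, or −2.91 without GX1, and CHS2, a chitin synthase of the septum, by −2.22 ± 0.28, or −2.91 without GX1. Of 49 genes of G1/S and DNA replication 24 fell and 4 rose (median −0.40), the G1 cyclin gene PCL1 at −2.20 ± 0.19 and the S-phase cyclin gene CLB5 at 0.93 ± 0.17. Of 18 genes of histones and chromatin assembly 14 did not pass, and the paralogous histone H2A genes moved apart, HTA2 by −2.47 ± 0.28 and HTA1 by 0.84 ± 0.11. The histone H2B gene HTB2 changed by −2.72 ± 0.23. Growth phase and cell cycle differ with the stage and cannot be told apart from sugar history.

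Meiosis and mating genes did not move as one. IME1, the master activator of meiosis, had 5.57 and 4.06 CPM in GX cells, against 108 and 28 CPM in X cells, a change of −3.79 ± 0.62 (adjusted p = 9.70e-04). X1 stood far above X2, and the change was −2.56 without X1 and −4.50 without X2. Of 52 genes of meiosis and sporulation, 23 rose and 6 fell (median 0.52). SPR28, a septin of sporulation, had 34.4 and 47.7 CPM in GX cells, against 4.27 and 8.07 CPM in X cells (2.69 ± 0.35). Of 25 genes of the pheromone response 10 rose and 0 fell (median 0.28), among them PRM7 (2.67 ± 0.17), PRR2 (2.14 ± 0.19) and FUS2 (1.35 ± 0.26). Beside these counts, the haploid-specific list had 4 rises and 2 falls of 18 and a median of 0.04.

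Wall and lipid genes changed in both directions. KTR2, a mannosyltransferase gene, rose by 2.52 ± 0.11 and GSC2, a glucan synthase gene, by 1.93 ± 0.13. Of 20 mannoprotein genes of the wall 11 fell and 3 rose (median −0.52), with SRL1 at −2.86 ± 0.29. Another secreted protein, PRY1, which binds sterols, changed by −2.17 ± 0.19. INO1, inositol-phosphate synthase, had 499.8 and 290.4 CPM in GX cells, against 2396 and 2113 CPM in X cells (−2.51 ± 0.56, adjusted p = 0.00512). OPI3, an enzyme of phosphatidylcholine synthesis, changed by −1.57 ± 0.21 and the fatty acid elongase gene ELO2 by −1.87 ± 0.13. Over 30 phospholipid and fatty acid genes 13 fell and 2 rose (median −0.18, of changing sign). Of 28 sterol genes 11 fell and 5 rose (median −0.24), ERG6 at −1.27 ± 0.14. RSB1, a lipid translocase gene, rose by 2.33 ± 0.16.

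Protein breakdown and stress genes gave smaller or mixed shifts. The counts of their lists stand beside 26.7% risen and 22.0% fallen over all genes. Of 35 proteasome genes 14 rose and 3 fell, with a median of 0.20 and 0 genes past 2-fold. The gene of their activator, RPN4, rose by 0.76 ± 0.12 and the subunit gene RPN13 by 0.77 ± 0.09. The Rpn4 motif GGTGGCAAA lay in 77.1% of the proteasome promoters, against 1.28% of all. No match lay in the 300 bases before RPN4 or RPN13. The motif is shown in capitals, on the coding strand of each gene, for RPT6 (chrVII:411351-411381, minus strand) and RPN12 (chrVI:252397-252427, plus strand), where it is in reverse. Their changes were 0.60 ± 0.10 for RPT6 and 0.60 ± 0.10 for RPN12.
RPT6: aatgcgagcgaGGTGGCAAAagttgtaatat
RPN12: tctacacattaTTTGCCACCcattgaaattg
Of 39 genes of autophagy and vacuolar proteolysis 10 rose and 6 fell (median 0.19). ATG8, the ubiquitin-like protein of autophagosomes, changed by 1.47 ± 0.15, PRB1, vacuolar protease B, by 1.28 ± 0.15, and ATG13, of the autophagy kinase complex, by −1.48 ± 0.15.

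Of 29 genes for glycogen, trehalose and glycerol 13 fell and 5 rose (median −0.42). GPD2, glycerol-3-phosphate dehydrogenase, had 78.0 and 74.1 CPM in GX cells, against 309 and 349.8 CPM in X cells (−2.11 ± 0.13, adjusted p = 9.26e-06), and GPH1, glycogen phosphorylase, changed by −1.58 ± 0.32, or −2.27 without GX1. ATH1, the acid trehalase gene, rose by 1.22 ± 0.12. Of 33 genes of hydrophilins and the stationary phase 12 rose and 7 fell (median 0.10). HSP26, a small heat shock protein gene, had 10.5 and 7.74 CPM in GX cells, against 92.4 and 38.3 CPM in X cells (−2.82 ± 0.54, adjusted p = 0.00229), and −2.09 without X1. HSP30, of the plasma membrane, changed by −2.56 ± 0.46. Of 25 heat shock and chaperone genes 8 rose and 5 fell (median 0.09), with HSP104, a disaggregase of the cytosol, at −1.26 ± 0.25 and KAR2, a chaperone of the endoplasmic reticulum, at 1.17 ± 0.27. Of 33 genes of oxidative stress 9 rose and 3 fell (median 0.13). The shares risen were 32.0% for heat shock and chaperones and 27.3% for oxidative stress, near the 26.7% over all genes.

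**Figure D4:**
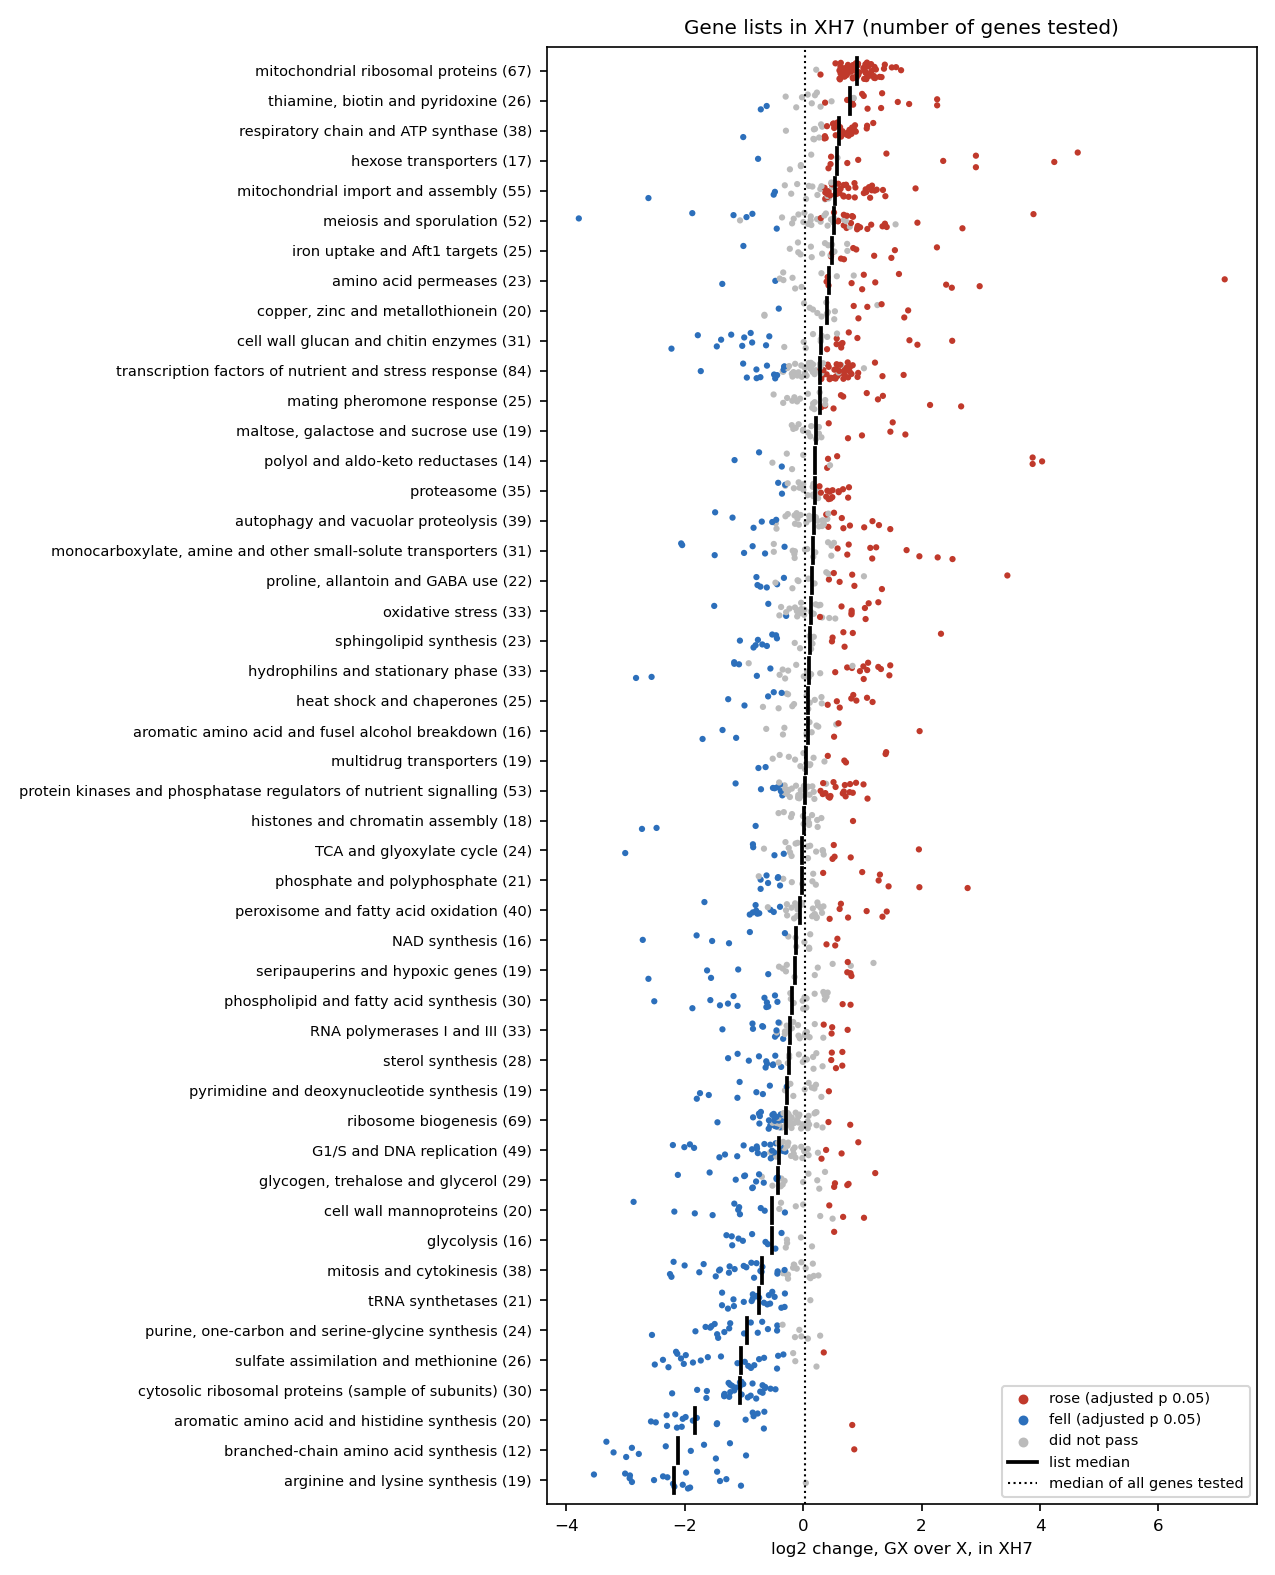
Log2 change, GX over X, in XH7 of each tested gene (points) in the lists with 10 or more genes tested (rows, with the number tested), red for rises, blue for falls and grey for genes that did not pass, with black bars for list medians and a dotted line for the median of all genes. The medians run from −2.17 for arginine and lysine synthesis to 0.90 for mitochondrial ribosomal proteins.

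The cytosolic ribosome and glycolysis were lower. All 30 cytosolic ribosomal protein genes of a sample of subunits fell, with a median of −1.07, RPL9A at −2.21 ± 0.16. Of 69 ribosome biogenesis genes 23 fell and 2 rose, with 44 not passing (median −0.29). Of 16 glycolysis genes 10 fell and 1 rose (median −0.53), FBA1, the aldolase gene, at −1.29 ± 0.16. In the pentose phosphate pathway, TKL1 (transketolase) changed by −1.22 ± 0.12, RPE1 (ribulose-phosphate epimerase) by −1.12 ± 0.20, TAL1 (transaldolase) by −0.97 ± 0.13 and RKI1 (ribose-phosphate isomerase) by −0.73 ± 0.11. The xylulokinase gene XKS1 had 4069 and 4853 CPM in GX cells, against 3759.7 and 4024 CPM in X cells, and did not pass (adjusted p = 0.234). GRE3, one of the insertion sites and described as deleted in the study, still gave 28.8 and 26.7 CPM in GX cells. It gave 55.0 and 68.5 CPM in X cells (−1.16 ± 0.14). PHO13, the other named insertion site, changed by −0.43 ± 0.12 and did not pass without GX2, with library totals or in limma on FPKM. PHO13, also described as deleted, held 343 and 245 counts in GX libraries and 321 and 388 in X libraries. The source of the GRE3 and PHO13 reads was not tested. Native and inserted copies of a gene cannot be told apart in these counts.

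Of 84 transcription factor genes of nutrient and stress response 36 rose and 14 fell. Of these 3 were called higher and 2 lower, beside 6.57% called higher and 5.88% called lower among all genes tested. ACA1, a factor of non-fermentable carbon use, had 658 and 745 CPM in GX cells, against 216 and 216 CPM in X cells (1.70 ± 0.17, adjusted p = 6.70e-05). ADR1, an activator of glucose-repressed genes, changed by 1.34 ± 0.14 and SUT2, related to sterol uptake, by 1.21 ± 0.12. MET28, a factor of sulfur metabolism, fell by 1.73 ± 0.12 and GCR1, the activator of glycolysis, fell by 1.01 ± 0.10. Of 53 genes of nutrient-signalling kinases and phosphatase regulators 19 rose and 8 fell (median 0.04, of changing sign). REG2, a regulatory subunit of the phosphatase Glc7, rose by 1.09 ± 0.11, and RAS1, a GTPase gene of the cAMP pathway, fell by 1.14 ± 0.11.

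Genes with no standard name were counted apart from named ones and are called uncharacterised here. Some of them have an annotated product, such as YDR341C and YPL088W. Of 446 tested uncharacterised genes 54 were called higher (12.1%) and 19 lower (4.26%), with a median of 0.18. Of 5020 named genes 304 were called higher (6.06%) and 300 lower (5.98%), with a median of 0.03. The 455 tested identifiers without a locus tag in R64 gave 31 higher (6.81%) and 29 lower (6.37%). The median level of the uncharacterised genes was 4.86 log2 CPM, against 6.27 log2 CPM for the named ones, and its part in these shares was not tested.

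YPL088W, annotated as an aldo-keto reductase, was the most abundant of the large rises without a name. It had 773 and 716 CPM in GX cells, against 147 and 175 CPM in X cells, a change of 2.21 ± 0.13 (adjusted p = 8.78e-06). YPR078C had 41.5 and 38.2 CPM in GX cells, against 2.56 and 3.78 CPM in X cells (3.62 ± 0.25, adjusted p = 1.24e-05). YGR153W changed by 2.19 ± 0.17, YGL230C by 2.28 ± 0.23 and YDR274C by 2.10 ± 0.23. Their GX and X levels did not overlap, and their proteins have no assigned function in the annotation. YPR145C-A had 2.07 and 1.84 CPM in GX cells, against 84.9 and 25.8 CPM in X cells, a change of −4.78 ± 0.66 (adjusted p = 3.92e-04). X1 stood far above X2 here too, and the change was −3.74 without X1 and −5.45 without X2. YOL014W fell by 2.38 ± 0.35, YIR042C fell by 2.24 ± 0.28 and YPL264C fell by 1.68 ± 0.16.

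The largest rises and falls among genes without a standard name were set beside their neighbours by systematic name. In 41 such pairs the neighbour passed in the same direction in 21, passed in the opposite direction in 4 and did not pass in 16. No share over all neighbouring pairs is given for comparison, so these counts do not show whether such genes follow their neighbours. The neighbours YER187W and YER188W were both chosen for their rises. YDR509W (2.78 ± 0.35) is next to GNP1, YJR157W (2.21 ± 0.32) next to HXT16, and YER187W (2.95 ± 0.44) next to YER188W (2.62 ± 0.47, or 1.86 without X1 and 3.70 without X2). YER187W held 2 and 4 counts in X libraries and YER188W 6 and 2. YER068C-A changed by −2.30 ± 0.14 beside ARG56 at −2.20, an arginine synthesis gene, YPR059C by −1.95 ± 0.23 beside YMC1 at −1.77, and YLR062C by −1.78 ± 0.12 beside RPL22A at −1.79 ± 0.12. YPR145C-A lies by ASN1, asparagine synthetase, which changed by −1.29 ± 0.31, a call lost without X2 and without GX2. The strand of counting is not stated, so reads of overlapping or antisense neighbours cannot be told apart. YLR062C held 1469 and 1171 counts in GX libraries and 3549 and 4603 in X libraries. RPL22A held nearly the same, with 1467 and 1169 in GX libraries and 3479 and 4708 in X libraries. Whether YLR062C changed apart from RPL22A was not tested. The opposite pairs were YOL014W with HRD1 at 0.78, YGL230C with SAP4 at −0.81, YML122C at 1.97 with GTR1 at −0.45, and YDR133C with MRX16 at 0.71. GTR1 did not pass with library totals or in limma on FPKM. YDR133C, which has no tag in R64, had 33.6 and 19.7 CPM in GX cells and 267 and 238 CPM in X cells (−3.23 ± 0.21).

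The tested genes were also counted by their distance from a chromosome end. Of 250 tested genes within 30 kb of an end of a chromosome in R64, 47 were called higher (18.8%) and 13 lower (5.2%), with a median of 0.28. Of 5216 genes farther in, 311 were called higher (5.96%) and 306 lower (5.87%), with a median of 0.03. The share higher near the ends was 17.0% for 200 named genes and 26.0% for 50 uncharacterised ones. VBA5, SOR1, SOR2, HXT13, HXT15, HXT16, DSF1, PHO89, GIT1, SNZ2 and ZRT1 are among the 47. The ends of chromosomes in XH7 itself may be arranged differently.

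The stage effect was then compared with that in BSGX001, as the difference of the 2 changes in 1 fit. The difference passed at any fold for 1750 genes (29.6%). With 2-fold or more as a limit, 290 genes (4.9%) changed more towards higher in XH7 and 394 (6.65%) more towards lower. The strains differ in background, ploidy, COX4 and other alterations at once, so the source of a difference cannot be told apart.

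Synthesis of arginine and lysine separated the strains. Its median was −2.17 in XH7 and −0.57 in BSGX001, and 17 of 19 genes passed the test of the difference. ARG1 stood at −3.53 ± 0.22 in XH7 and −0.01 in BSGX001, a difference of −3.52 (adjusted p = 1.67e-04). Branched-chain amino acid synthesis had medians of −2.11 and −0.67, and aromatic amino acid and histidine synthesis −1.83 and −0.64, in XH7 and BSGX001. For tRNA synthetases the medians were −0.74 and −0.69, and 1 of 21 genes passed. Mitochondrial ribosomal proteins had a median of 0.90 in XH7 and −0.11 in BSGX001, and 65 of 67 passed, MRP17 with a difference of 1.76 (adjusted p = 4.82e-04). Import and assembly genes had medians of 0.53 and −0.13, with 30 of 55 passing.

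Stress and storage genes also differed between the strains. The hydrophilin and stationary phase list had a median of 0.10 in XH7 and 1.72 in BSGX001, with 22 of 33 genes passing. HSP26 changed by −2.82 ± 0.54 in XH7 and 2.15 in BSGX001 (difference −4.97, adjusted p = 0.00126), and HSP30 by −2.56 ± 0.46 and 2.33. SIP18, a hydrophilin gene, stood at 0.83 ± 0.31 in XH7, where it did not pass (adjusted p = 0.0504), and at 4.96 in BSGX001. SSA3, an inducible Hsp70 gene, stood at −0.30 ± 0.19 in XH7 (adjusted p = 0.212) and at 3.71 in BSGX001. Glycogen, trehalose and glycerol genes had medians of −0.42 and 0.65, and maltose, galactose and sucrose genes 0.22 and 1.19, in XH7 and BSGX001. NDE2, which fell in XH7, rose by 2.77 in BSGX001. IME1 stood at 1.26 in BSGX001, where it did not pass, and the difference from XH7 was −5.05 (adjusted p = 0.00319).

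**Figure D5:**
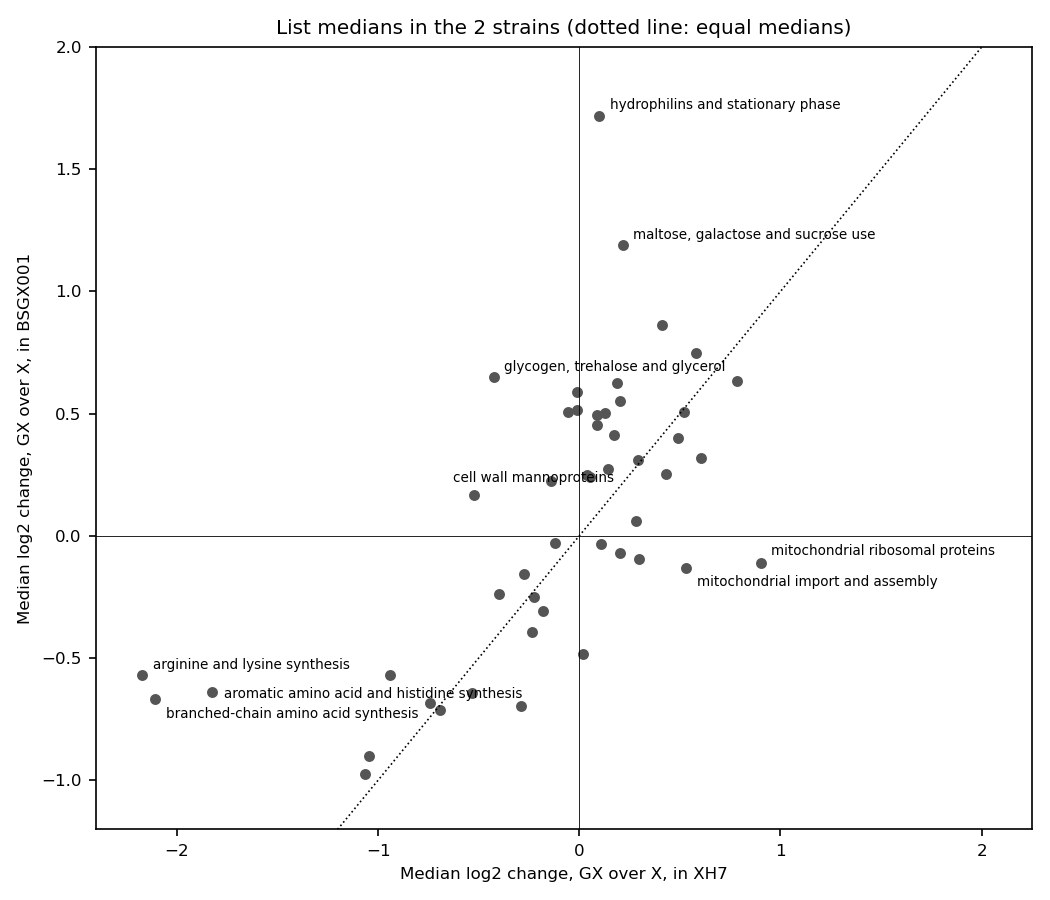
Median log2 change, GX over X, of each list with 10 or more genes tested (points), in XH7 (horizontal axis) and BSGX001 (vertical axis), with a dotted line of equal medians. Mitochondrial ribosomal proteins lie at 0.90 in XH7 and −0.11 in BSGX001, and the hydrophilin and stationary phase list at 0.10 and 1.72.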

How the data were processed

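The authors isolated mRNA from total RNA with oligo(dT) beads and sequenced it on an Illumina instrument. Each deposited table holds expected counts, unscaled estimates of fragments for each gene, and FPKM values, which the authors scaled by gene length and library total. The aligner, the counter and its strand setting are not given in the sources used. The submitters' processing notes name genome build R64. The authors' comparison tables (mean FPKM, log2 ratio and a probability score) were not used.

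Expected counts were rounded to whole numbers, and a gene missing from a table was taken as 0. Of 6170 identifiers, 579 had no tag in R64 and held 2.76% to 3.54% of the XH7 counts. Genes were fitted with edgeR 4.0.16 in R 4.3.3 (quasi-likelihood test, TMM scaling, filterByExpr with a minimum count of 10) in 1 model of 4 groups and 8 libraries, with Benjamini-Hochberg adjustment. A gene rose or fell where the adjusted p was at most 0.05 and was called with 2-fold or more besides. Alternatives were RLE, upper-quartile and library-total scaling, TMM outside ribosome and glycolysis genes, other filters, DESeq2 1.42.0, limma 3.58.1 on log2 FPKM (pseudocounts 1 and 0.1), XH7 alone, a replicate block and leaving out each library. The pipeline was tested on simulated data.

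The comparison, the 51 gene lists and the tests were chosen with earlier results of these data known. The DNA repair gene RAD16 was taken out of the transcription factor list. Named genes are the altered genes, the 15 largest rises and 15 largest falls at a mean log2 CPM of 3 or more, the 12 largest rises and 8 largest falls without a standard symbol at 2 or more, up to 3 risen and 3 fallen genes per list (2 for carbon and ribosome lists), and the 8 largest strain differences in each direction, some cut for length and 1 result not reported here. GCN4, PUF3, SSY1, GNP1, PUT2, RSM22, RPT6, RPN12, ARG56, YMC1, ASN1, HRD1, SAP4, GTR1, MRX16 and the haploid markers were chosen after their values were seen. Motifs were searched in 300 bases before the start codon and 200 after the stop codon of the R64 reference. The motifs of Leu3, Cbf1, Stp1, Ume6 and Aft1 and the CCAAT, STRE and PAC elements were searched too. Shares among genes called higher, called lower and all were 40.5%, 45.1% and 42.4% for CCAAT, and 24.0%, 21.3% and 22.4% for STRE. They were 12.8%, 16.0% and 18.6% for PAC and 8.94%, 4.7% and 5.01% for Ume6.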

Additional observations from a re-analysis of the deposited data

Results flagged for a closer look

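The named genes below were singled out because the stage effect differed between the strains by edgeR's quasi-likelihood test of the difference (Benjamini-Hochberg adjusted p of 0.05 or less and a difference of 2-fold or more). Over all genes such differences passed in 4.9% and 6.65% of tests, towards higher and lower in XH7. Each value is the log2 change in XH7 minus that in BSGX001. The strains differ in background, ploidy, COX4 and other alterations, which cannot be told apart. The genes are grouped by whether the change passed in each strain on its own at that p, whatever its fold, and a change that did not pass is given no direction. Most of the named genes had first been chosen by the size of their change in XH7. That choice favours larger changes in XH7, so the lists below do not show which strain responded more. The BSGX001 changes of YPL264C, ATO3, ALD4 and GNP1 no longer passed under at least 1 other scaling. Those of PCK1, HTA1, MET28 and ATG13 did not pass with TMM but passed as falls with upper-quartile scaling.

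Genes that rose in both strains, by more in XH7, had differences of VBA5 5.93, SOR1 3.07, SOR2 3.07, ULI1 2.52, HXT13 2.44, DSF1 2.16, HXT16 2.11, HXT15 2.11, KTR2 2.0, GNP1 1.93, YER187W 1.91, PUT1 1.78, YPR078C 1.75, PRM7 1.72, CIS1 1.68, SPR28 1.57, GSC2 1.44, SNZ3 1.36, SNZ2 1.36, RSB1 1.20 and YET2 1.12. GDH3 −1.12 and REG2 −1.06 also rose in both, by less in XH7.

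Genes that rose in XH7 and did not pass in BSGX001 had differences of PCK1 3.38, FUI1 2.78, FRE4 2.51, YPL088W 2.17, YER188W 2.14, YDR509W 2.11, BAP3 2.04, IDP2 2.02, YML122C 1.99, YGR153W 1.87, YGL230C 1.85, MRP17 1.76, MRPS17 1.74, MRPS8 1.61, COX17 1.60, TIM9 1.49, PET191 1.38, HTA1 1.09 and CLB5 1.01. HXT14 belongs here too, but its fitted difference of 4.47 rests on 1 count in the X libraries of XH7 and is no measure of a fold. Its fitted change in XH7 ran between 1.38 and 7.27 over the alternatives and did not pass in limma on FPKM. FBP1 3.98 and AGP1 3.24 rose in XH7 and fell in BSGX001.

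Genes that fell in XH7 and did not pass in BSGX001 had differences of YPR145C-A −6.07, IME1 −5.05, ARG1 −3.52, ARG8 −3.04, ARG3 −2.94, YOL014W −2.78, TRP4 −2.25, GPH1 −2.20, YIR042C −2.08, MEP2 −1.72, OPI3 −1.65, YPR059C −1.63, MET28 −1.51 and ATG13 −1.25. Those that fell in XH7 and rose in BSGX001 were HSP26 −4.97, HSP30 −4.89, NDE2 −3.78, ALD4 −3.56, SSU1 −3.26, PRY1 −2.95 and HSP104 −2.23. SIP18 −4.13 and SSA3 −4.01 did not pass in XH7 and rose in BSGX001.

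Genes that fell in both strains, by more in XH7, had differences of ALD5 −2.52, LEU2 −2.48, YDR133C −2.42, BAT1 −2.25, ARG4 −2.24, LEU9 −2.02, OAC1 −2.0, YER068C-A −1.78, BNA1 −1.76, ARG56 −1.72, HOM3 −1.63, PCL1 −1.53, LYS9 −1.49, GPD2 −1.34, HIS1 −1.33, SER3 −1.31, YPL264C −1.28, YMC1 −1.20, ATO3 −1.06 and HTB2 −1.06.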

How the results depend on the processing

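Of the 737 genes called in XH7, 612 to 733 were also called under each alternative, and 0 changed sign. With library totals 613 genes were called higher, 817 fell at any fold and 449 changed more towards higher than in BSGX001. Limma on log2 FPKM gave 589 genes higher and 226 lower with a pseudocount of 1, and 628 and 231 with 0.1. It gave 799 and 797 falls at any fold, and 446 genes changing more towards higher in XH7 with 0.1. An adjusted p of 0.01 left 862 falls. Leaving out 1 library in turn gave 312 to 382 genes higher, 309 to 435 lower, 1068 to 1449 risen and 1021 to 1195 fallen. Between strains it gave 220 to 311 genes changing more towards higher and 320 to 475 more towards lower in XH7. With a replicate block 378 genes were higher and 352 lower, and 278 and 399 differed between strains. Same-numbered XH7 libraries deviated with r = −0.276. With 2 libraries a stage this value only changes sign when the numbers are crossed, so it cannot decide whether the numbers pair cultures. A block of crossed numbers, chosen after seeing the data, gave 382 higher and 351 lower. At this depth a floor of 3 counts equals 0.442 to 0.568 CPM. The medians of the TCA, multidrug, NAD, phosphate, phospholipid, peroxisome, seripauperin, histone and kinase lists changed sign with the scaling.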
